A study of Ramazzottius varieornatus with 27 samples.

Results

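The data are the transcriptome of the tardigrade Ramazzottius varieornatus at 12 h after 500 Gy of 60Co gamma ray, set against non-irradiated controls of the same species. The members are 6 of the 27 libraries of the series, taken by their titles: 3 of 12 h and 3 of the controls. Each library was made from the whole bodies of 30 animals. The animals of all times were irradiated together in a pair of tubes and then kept at 22 °C on agar plates until sampling. The replicates are technical by the account of the study, so p-values here measure the spread between samples of 1 irradiation and not between separate cultures. The sources used here give no sampling time for the controls, so hours on the plate and hours after irradiation cannot be told apart.

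Tardigrades are microscopic animals, and R. varieornatus is a terrestrial species that survives drying and very high doses of radiation. Gamma rays break DNA strands directly and split water into reactive oxygen species, which damage DNA, proteins and lipids. In animals the known responses include DNA repair, arrest of the cell cycle and the removal of peroxides. The transcript IDs of the deposited table (g1.t1 and the like, gene number and transcript model) matched 0 entries of the gene table used here, so genes are described by their IDs and values and no role is given to them. The exception is g12777, named in the series description used here as the Mn-dependent peroxidase AMNP.

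The values are TPM (reads of a transcript relative to its length and to the whole library), scaled between libraries by a TMM factor. TPM keeps no depth, so the reads behind a value cannot be read from the table. By number of transcripts above 0, the 12 h libraries were close to each other, at 12411, 12476 and 12297, while the controls were at 13126, 13325 and 11556. Pearson's r between replicates on log2(value + 1), across transcripts, which are not independent replicates, was 0.960 to 0.963 at 12 h and 0.947 to 0.972 in the controls.

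The comparison of 12 h with the controls gave 492 transcripts above and 828 below the control level, 10.3% of the 12820 tested. A transcript was called where the means differed more than 2-fold and limma on log2(value + 1) gave an adjusted p (Benjamini-Hochberg) under 0.05. The higher ones made up 3.84% and the lower ones 6.46%. Most rises were under 4-fold. Of the 492, 453 (92.1%) lay between 2- and 4-fold, 18 between 4- and 10-fold and 13 above 10-fold, and the other 8 were listed at 0 in all 3 controls. The falls spread further, with 576 of 828 (69.6%) between 2- and 4-fold, 181 between 4- and 10-fold and 37 above 10-fold, and 34 listed at 0 in all 3 libraries of 12 h. The median ratio was 2.24 among the higher transcripts and 3.09 among the lower ones, in which the transcripts listed at 0 count as the largest. Since calls needed a ratio over 2, these medians describe the called transcripts only.

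The balance of rises and falls followed the scaling and the fold threshold. With the TMM factor undone, 861 transcripts were higher and 647 lower, so that the share of higher ones was 57.1%, against 37.3% with TMM. Over all transcripts tested, the log2 change had a median of -0.05 with TMM and 0.06 without it. With no fold threshold, 1918 were higher and 1281 lower. Without control replicate 2 the higher transcripts numbered 310 and the lower ones 692.

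The 12 h libraries had 21 cycles of PCR by the methods, while none is stated for libraries called controls. Irradiation and PCR cycles therefore cannot be told apart in this comparison.

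**Figure D1:**
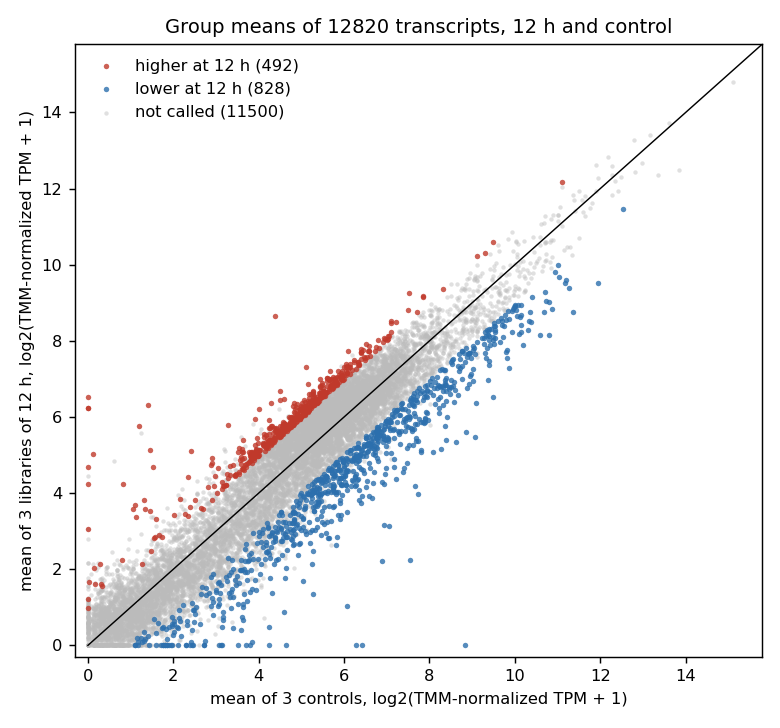
Mean of 3 libraries of 12 h (vertical axis) against the mean of 3 controls (horizontal axis), both as log2(TMM-normalized TPM + 1), for 12820 transcripts, with the 492 called higher in red, the 828 called lower in blue and the others in grey. The red points lie in a thin band above the diagonal, the blue points spread further below it, and some points lie on an axis because a group was listed at 0.

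All 3 libraries of 12 h lay above all 3 controls for 2976 transcripts (23.2%) and below them for 2852 (22.2%). Among the called transcripts the groups did not overlap for 488 of the 492 higher and 811 of the 828 lower ones. The libraries did not contribute equally. Over the 492 higher transcripts, the median log2 difference was 1.39, 1.35 and 1.61 for 12 h replicates 1, 2 and 3 over control replicate 2. Over control replicate 1 it was 0.99, 0.94 and 1.20 for the same libraries, and over control replicate 3 it was 0.98, 0.95 and 1.16. Control replicate 2 was thus the lowest control for these transcripts. Over the 828 lower transcripts, the 9 pairs of libraries gave medians between -1.65 and -1.41, a narrow range.

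Among highly expressed transcripts, most calls were falls at 12 h. Of 134 transcripts with a control mean of at least 1000, 1 was higher and 34 lower (25.4% lower, against 6.46% of all tested). Of 1987 with a control mean of 100 to 1000, 24 were higher and 300 lower (15.1% lower). Of 6357 at 10 to 100, 399 were higher and 387 lower, and of 2994 at 1 to 10, 51 were higher and 107 lower. Grouping by control level uses the controls of the comparison itself, which favours falls among high transcripts. Grouped by the mean of all 27 libraries, 9 of 97 transcripts at 1000 or more were lower and 3 higher, or 6 lower and 6 higher with the TMM factor undone. For 100 to 1000 in that grouping, 202 of 2012 were lower and 90 higher.

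Among the 100 transcripts with the highest control means, 21 were lower and 1 higher at 12 h. Of all tested, 6.46% were lower and 3.84% higher. Choosing by the control mean favours falls here as well. Log2 fold changes of the 21 ran between -2.85 and -1.06. The single higher one averaged 4625 at 12 h and 2203 in the controls. With the TMM factor undone, 18 of the 100 were lower and 2 higher. The 100 together took 27.7%, 26.2% and 25.2% of the library sum at 12 h, against 29.4%, 27.9% and 28.3% in the controls. All 3 shares of 12 h were below the lowest control share, for a set chosen on the control means. Chosen in each library by itself, the 100 highest took 29.2%, 28.3% and 27.3% at 12 h. The controls then had 29.6%, 28.0% and 28.4%, so that the groups overlapped.

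The transcripts called lower were a sizeable part of the control transcriptome. The 828 took 5.92% ± 0.18 of the library sum at 12 h and 15.6% ± 0.27 in the controls (SD, n = 3 each). The 492 higher transcripts took 5.08% ± 0.65 at 12 h and 1.97% ± 0.24 in the controls (SD, n = 3 each). Both sets were chosen on these libraries, so the shares are a description.

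Transcripts are named by the size of their change among 1119 called ones (425 higher and 694 lower) whose gene has a single model in the table, whose mean in the higher group was at least 10 and whose groups did not overlap. The 2 at each end of that order are given.

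The transcript g5086.t1 had 47.4, 67.6 and 107 TMM-normalized TPM at 12 h and was listed at 0 in all 3 controls (limma adjusted p = 0.0052). All 3 libraries of 12 h lay above the controls, and no fold is given against a group at 0. It was listed at 0 in all 6 h libraries as well. At 15 h it averaged 32.8 ± 25.6 (SD, n = 3), so its level varied widely between libraries.

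The transcript g9628.t1 had 314, 408 and 477 at 12 h, against 41.4, 0 and 18.5 in the controls. The groups were far apart, and 1 control was listed at 0. Its log2 fold change was 5.40 (standard error 1.42, limma adjusted p = 0.0068). Without control replicate 2, the one at 0, the log2 fold change was 3.78 and the adjusted p 0.070, which no longer passed.

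The transcript g5285.t1 was listed at 0 in all 3 libraries of 12 h and had 74.6, 46.9 and 108 in the controls (limma adjusted p = 0.0012). It was also listed at 0 in every library of 15 h, 18 h and 24 h. At 9 h the mean of 39.9 ± 69.2 (SD, n = 3) came from 1 library at 120, while the other two were listed at 0.

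The transcript g4159.t1 had 3.54, 4.70 and 2.93 at 12 h, against 232, 166 and 158 in the controls. It was above 0 in all 27 libraries and was already at 12.7 ± 3.87 at 4 h (SD, n = 3). The change at 12 h was -5.30 on the log2 scale (limma adjusted p = 6.77e-06, standard error 0.61). Fold changes here are of log2(value + 1), which makes changes of low transcripts look smaller.

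The transcripts after the named ones in this order are given by their range. Among those above 0 in all 6 libraries, the next 10 rises had log2 fold changes between 1.77 and 2.40, with means of 10.5 to 159 at 12 h and 1.73 to 33.6 in the controls. The next 10 falls lay between -4.76 and -3.25, with means of 0.849 to 43.2 at 12 h and 23.1 to 534 in the controls. The highest adjusted p was 0.045 among these rises and 0.039 among these falls (limma).

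The AMNP transcript g12777.t1, of a tardigrade peroxidase (an enzyme class that breaks down peroxides), had 342, 311 and 400 at 12 h, against 250, 291 and 257 in the controls. Every library of 12 h lay above every control, yet the log2 fold change of 0.39 (standard error 0.21) did not pass (limma adjusted p = 0.20). The 4 h libraries had 729, 678 and 692, above all libraries of 12 h. So were those of 9 h, at 809, 542 and 587, with 21 cycles of PCR like 12 h. Against 9 h the log2 fold change of 12 h was -0.86 (standard error 0.21, limma adjusted p = 0.095), which did not pass. From limma, the log2 difference of 12 h minus 4 h was -1.001 ± 0.21 (standard error) with an adjusted p of 0.0028 and a ratio of the means under 2, so it was not called by the fold threshold.

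**Figure D2:**
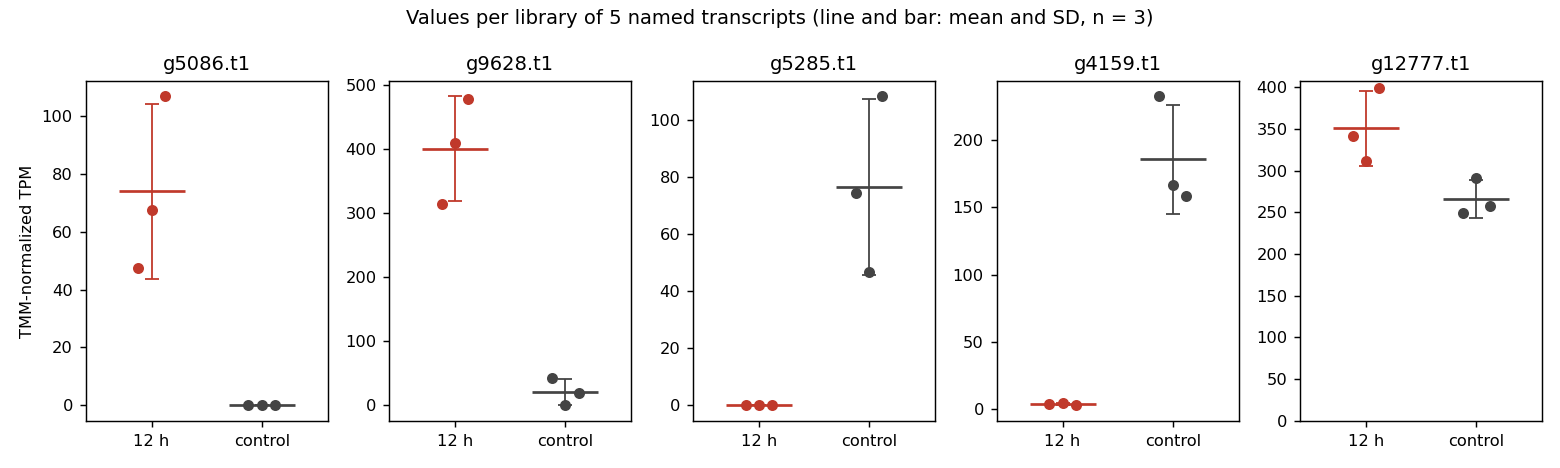
TMM-normalized TPM (vertical axes, linear, a scale for each panel) of 5 transcripts in the 3 libraries of 12 h (red, left) and the 3 controls (grey, right), with the mean as a line and the SD as a bar. The groups do not overlap in any panel, which was a condition of choice for all but g12777.t1. The transcript g5086.t1 is at 0 in all controls and g5285.t1 at 0 in all libraries of 12 h, and g12777.t1 shows the smallest difference.

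Some transcripts were listed at 0 throughout a group. There were 48 at 0 in all libraries of 12 h and above 0 in all controls, of which 29 were called lower. In the other direction 13 were above 0 in all libraries of 12 h and at 0 in all controls, of which 8 were called higher. Over all transcripts tested, 6.46% were called lower and 3.84% higher. Transcripts chosen by this pattern cannot overlap between the groups and always meet the fold threshold, which favours calls among them. Most had low values where present, with a median of the means of 2.44 for the 48 and of 1.80 for the 13. The highest mean among the 48 belonged to g1386.t1, with 0 in each library of 12 h, against 721, 396 and 247 in the controls. It was also at 0 in each library of 9 h, and at 112, 255 and 302 at 18 h. The gene of g1386.t1 has 2 models in the table, between which RSEM divides shared reads, and the part of this division in the 0 values was not tested. This transcript was chosen after its values were seen.

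The balance of calls was also counted by the number of models of a gene. Of 947 tested transcripts of genes with 2 or more models, 48 were higher and 26 lower (5.07% and 2.75%). Of 11873 transcripts of single-model genes, 444 were higher and 802 lower (3.74% and 6.75%). Of all tested, 3.84% were higher and 6.46% lower. The kinds also differed in level, with a median control mean of 9.82 for genes with several models and 29.0 for single-model genes. With the TMM factor undone the counts were 67 and 23 for the genes with several models, and 794 and 624 for the single-model genes. The difference between both kinds was not tested. A called model was found in 63 genes with at least 2 tested models. In 56 of them 1 model was called, in 4 at least 2 models moved the same way, and in 3 the models moved in opposite directions.

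The 3 genes with opposite calls are named after their values were seen. Their values can depend on how RSEM divided shared reads between the models, and the part of this division in the calls was not tested. In g8602, both models were low. The transcript g8602.t2 had 5.96, 5.04 and 10.8 at 12 h and was listed at 0 in all controls, and g8602.t1 was listed at 0 in all libraries of 12 h and had 6.44, 7.00 and 9.47 in the controls (limma adjusted p = 0.0029 and 4.91e-05). The sum of both models was 7.26 ± 3.09 at 12 h and 7.64 ± 1.61 in the controls (SD, n = 3 each), a difference smaller than the spread. The transcript g10086.t2 was listed at 0 in all libraries of 12 h and had 6.66, 6.78 and 0 in the controls, so that the groups overlapped at 0, and g7505.t2 was listed at 0 in all libraries of 12 h and had 2.83, 0.908 and 13.2 in the controls. The other model of each gene rose. The transcript g10086.t1 averaged 36.8 at 12 h and 17.2 in the controls, and g7505.t1 averaged 84.7 at 12 h and 39.9 in the controls. Of the 6 calls in these genes, 5 stood with the TMM factor undone and 4 without control replicate 2.

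The gene next in number to a called gene was called the same way in a minority of cases, described here with no test. Of 745 genes called lower whose next-numbered gene was tested, the next gene was also lower for 101 (13.6%), against 6.65% of all genes tested, and it was higher for 30 (4.03%). For the higher genes, the next gene was also higher for 37 of 453 (8.17%), against 3.95% of all genes. With the TMM factor undone these shares were 12.2% among lower genes (5.21% of all) and 10.8% among higher genes (6.93% of all). Without control replicate 2 they were 12.2% among lower genes (5.56% of all) and 6.05% among higher genes (2.49% of all). The table does not say whether gene numbers follow the order of the genes on the genome.

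The lower genes held 10 runs of 3 or more consecutive numbers, and the longest ones are described here, chosen after their values were seen. In the run g11513 to g11517, the transcript g11515.t1 had 3.68, 8.11 and 6.31 at 12 h, against 53.8, 51.1 and 40.9 in the controls, and g11516.t1 had 10.2, 9.62 and 7.17 at 12 h, against 63.5, 58.5 and 55.0 in the controls. The log2 fold changes of the 5 genes lay between -2.86 and -1.53. In the run g12679 to g12683, g12680.t1 had 90.3, 53.4 and 103 at 12 h, against 539, 592 and 498 in the controls. Its 5 genes changed by -2.76 to -1.21. The 4 genes g12533 to g12536 had means of 85.3 to 273 at 12 h and 332 to 717 in the controls, with log2 fold changes between -2.01 and -1.46. In each of these 4 genes, 12 h replicate 2 was the lowest library. No transcript of these runs overlapped between the groups, as was so for 811 of all 828 transcripts called lower. All 14 were called lower with the TMM factor undone, and 13 were without control replicate 2.

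**Figure D3:**
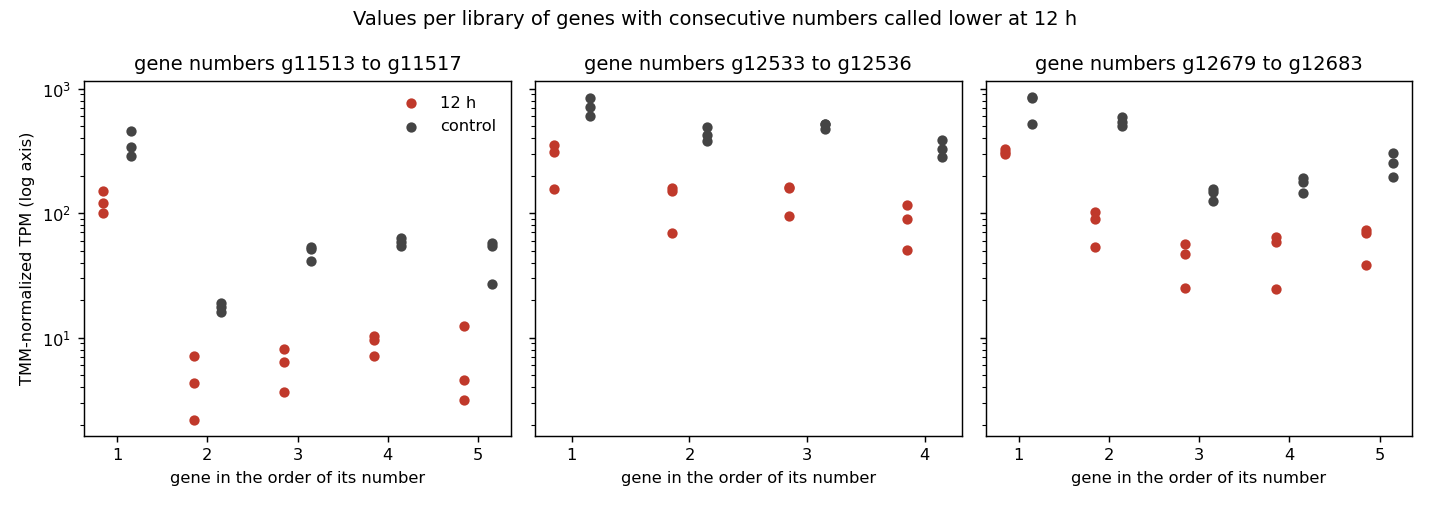
TMM-normalized TPM (vertical axis, log scale) of the genes in 3 runs of consecutive gene numbers (horizontal axis, order of the numbers), with the 3 libraries of 12 h in red to the left and the 3 controls in grey to the right of each position. The red points lie below the grey ones at all 14 positions.

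The transcripts called at 12 h were followed through the other groups. They were chosen at 12 h, which favours large values there, and every time shares the same controls. Over the 492 higher transcripts, the median log2 change against the controls was 0.30 (4 h), 0.70 (6 h), 1.14 (9 h), 1.16 (12 h), 1.00 (15 h), 1.21 (18 h), 1.12 (21 h) and 1.13 (24 h). Over the 828 lower transcripts it was -0.51 (4 h), -0.79 (6 h), -1.14 (9 h), -1.53 (12 h), -1.15 (15 h), -1.45 (18 h), -1.26 (21 h) and -1.14 (24 h). The rises were thus near their level of 12 h from 9 h on, and the falls were deepest at 12 h. At 6 h, replicate 3 (21 cycles of PCR) lay at 0.99 for the higher set, against 0.50 and 0.63 in replicates 1 and 2 (15 cycles), and at -1.14 for the lower set, against -0.54 and -0.71.

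**Figure D4:**
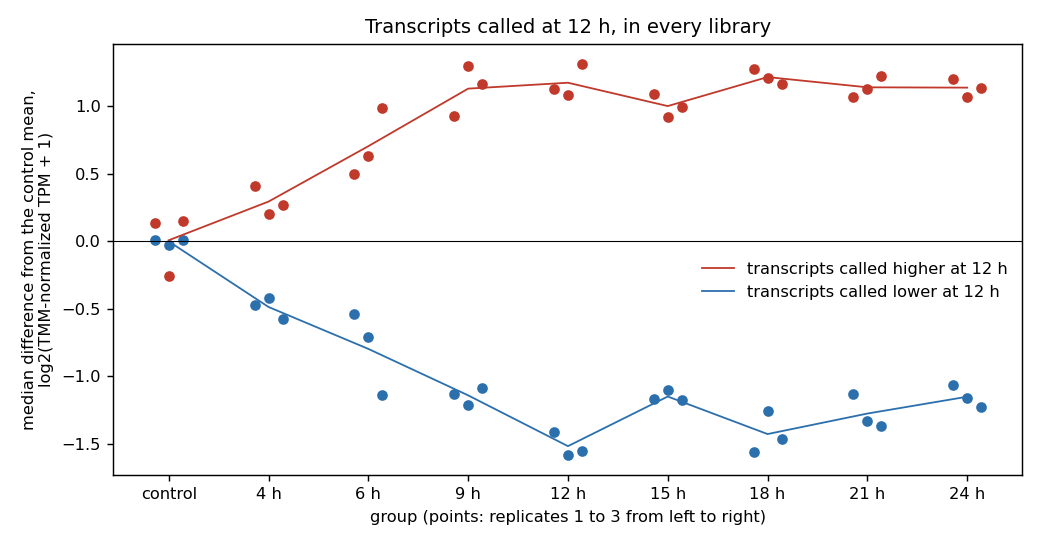
Median difference from the control mean, in log2(TMM-normalized TPM + 1) (vertical axis), of the 492 transcripts called higher (red) and the 828 called lower (blue) at 12 h, for every library of the controls and of 8 times (horizontal axis), with lines through the means of 3 libraries. The higher set lies between 1.08 and 1.32 in the 12 h libraries and the lower set between -1.58 and -1.41, and 6 h replicate 3 stands apart from the other 6 h libraries in both sets.

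Set against 4 h, 9 h and 15 h, the libraries of 12 h gave the most calls against 4 h. Of the 12820 transcripts, 175 were higher and 454 lower at 12 h than at 4 h (1.37% and 3.54%, together 4.91% called, limma). The controls are not in the means compared here, but they entered the filter and the shared estimate of the spread. With only the 12 h and 4 h libraries in the fit, 928 were called. For the 454 lower transcripts, the median of the group means was 30.4 at 12 h, 82.8 at 4 h and 74.6 in the controls. The control mean lay nearer to that of 4 h than to that of 12 h for 364 of them. Among the 175 higher transcripts the medians were 77.0 at 12 h, 32.5 at 4 h and 31.2 in the controls, and 163 had a control mean nearer to 4 h. Both sets were called on these libraries of 12 h and 4 h. The same count was not made over all transcripts tested, so these counts describe the called sets only. The 4 h libraries had 15 cycles of PCR and those of 12 h 21, so that time and cycles cannot be told apart. The count was 390 without 12 h replicate 3 and 368 without 4 h replicate 2.

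Between 12 h and 9 h, at 21 cycles each, 8 transcripts were called, all lower at 12 h (0.0624% of those tested, with 1850 transcripts at an unadjusted p under 0.05). The groups did not overlap for any of the 8, which were called on these same libraries. The share of all transcripts without overlap between 12 h and 9 h was not counted. The smallest adjusted p was that of g6203.t1, with 164, 140 and 164 at 12 h, against 359, 357 and 343 at 9 h. Its log2 fold change was -1.17 (standard error 0.15, limma adjusted p = 0.00082). It was higher still at 4 h, at 572, 669 and 556, while the controls had 164, 160 and 195, about the level of 12 h. The gene with the next number, g6204, was also among the 8, with means of 287 in the controls, 1060 (4 h), 756 (9 h) and 349 (12 h). The transcript g9011.t1 had 120, 131 and 124 at 12 h, against 303, 292 and 257 at 9 h (log2 fold change -1.17, standard error 0.17, limma adjusted p = 0.0044). It averaged 631 at 4 h and 150 in the controls. These transcripts were chosen after their values were seen.

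In 6 of the 8 the mean at 4 h was above that at 9 h, and in 2 it was below that of the controls. At 12 h, g7793.t1 was still called higher than the controls, with means of 72.4 at 12 h, 204 at 9 h and 15.1 in the controls. The 3 called lower than the controls were g11513.t1, g7809.t1 and g10166.t1. The mean of g11513.t1 was 124 at 12 h and 362 in the controls, and it was 290 at 24 h. The mean of g10166.t1 was 19.0 at 12 h and 46.6 in the controls, with 49.9 at 24 h. For both, 12 h was the group with the lowest mean. All 8 were called with the TMM factor undone as well. The number called rested on single libraries, as it was 66 without 9 h replicate 3, and 3 when 12 h replicate 2, 9 h replicate 1 or 9 h replicate 2 was left out. With only the 12 h and 9 h groups in the fit, the number called was 0.

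**Figure D5:**
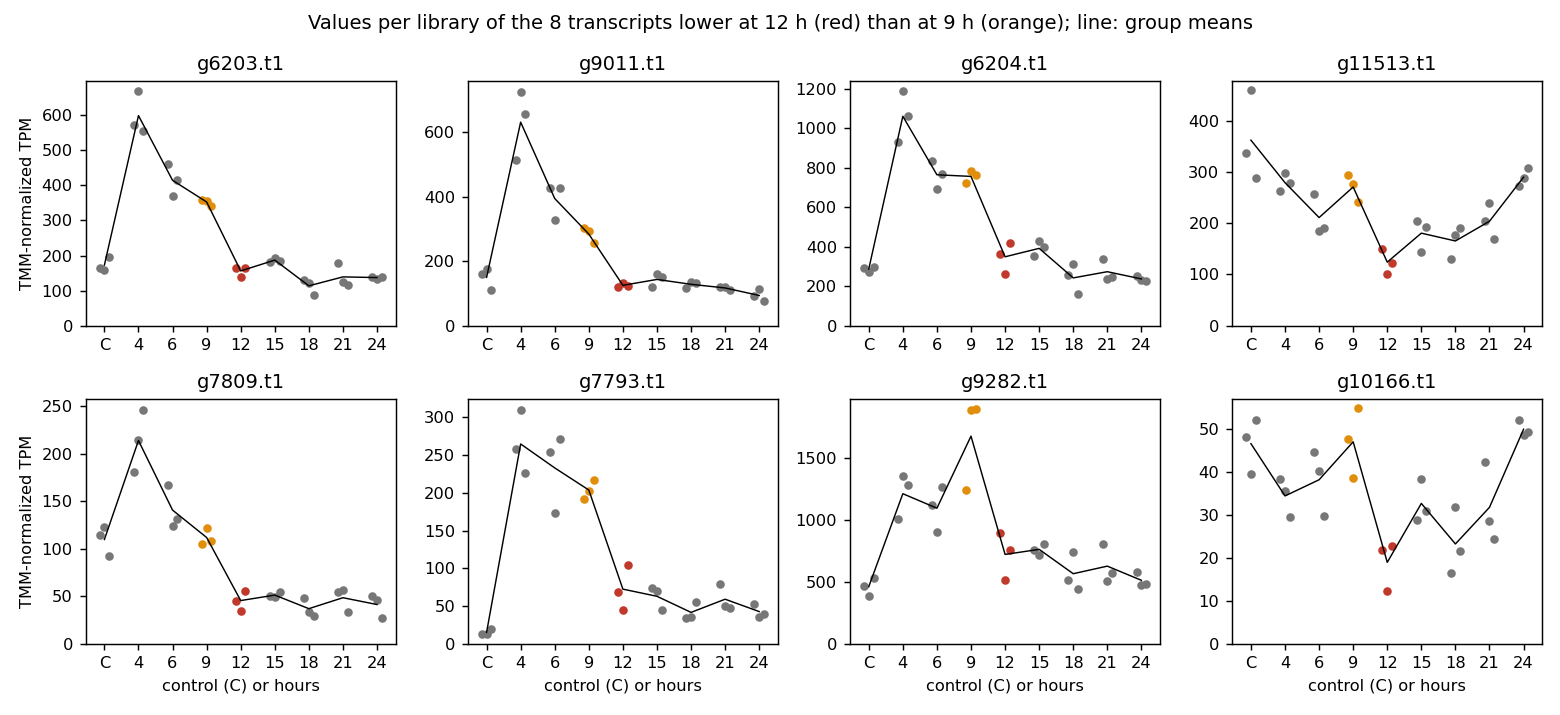
TMM-normalized TPM (vertical axes, linear from 0) of the 8 transcripts lower at 12 h (red) than at 9 h (orange), in the controls (C) and at 8 times in hours (horizontal axes), with a point for each library and a line through the group means. In every panel the 3 red points lie below the 3 orange ones, and in 6 panels the 4 h mean is above the 9 h mean.

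Between 12 h and 15 h, also at 21 cycles each, limma called 0 transcripts, with 608 at an unadjusted p under 0.05 and a smallest adjusted p of 0.28. A library left out or a fit of these groups alone gave at most 1 call. With 3 libraries against 3, no exact permutation test can give a two-sided p under 0.10, so all calls rest on limma's estimate of the spread, which borrows from the other groups and from all transcripts.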

How the data were processed

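RNA of whole animals was sequenced by the authors in 27 libraries. The authors mapped the reads with Bowtie2 to the coding sequences and estimated TPM per transcript with RSEM. The deposited signal values are these TPM values multiplied by a TMM factor per library (14532 transcripts, 13920 genes). The deposited table holds normalized values only. The study's supplementary counts, test results and enrichment terms were not used here, so DESeq2, which the authors used on counts, was not run, and transcript length was not analysed. By the study's read numbers, replicate 3 was the shallowest library of both groups. The share of reads that the study mapped to the coding sequences was higher in every library of 12 h than in every control. The part of this difference in the calls was not tested.

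Those that reached a value of 1 in 3 or more of the 27 libraries (12820 transcripts, 12353 genes) were tested on log2(value + 1) with limma 3.58.1 in R 4.3.3, with 9 group means, trend and Benjamini-Hochberg adjustment. The thresholds for a call were 0.05 for the adjusted p and 2 for the ratio of the group means, in either direction. The fit was tested on simulated data. Named transcripts were the 2 with the highest and the 2 with the lowest log2 fold change among called single-model transcripts with non-overlapping groups and a mean of at least 10 in the higher group, and g12777. No gene lists could be matched. The contrast, the transcript groups and the tests were chosen with earlier results of these data known. The alternatives were another pseudocount (0.1), no filter, fits of the groups compared alone, TMM undone, a replicate block, each library left out, other fold thresholds and summed models, and after the data were seen a fit without 9 h, 18 h and 24 h and a count without transcripts at 0.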

Additional observations from a re-analysis of the deposited data

Results flagged for a closer look

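Several results at 12 h differed from another time by a test of the difference itself (limma). Against 4 h, 629 transcripts were called and against 9 h 8 were. The log2 fold change at 12 h against 4 h was 5.03 for g5086.t1 (standard error 1.56, adjusted p = 0.030), which was listed at 0 in 2 of the 3 libraries of 4 h. It was 7.05 for g9628.t1 (standard error 1.42, adjusted p = 0.0018), also listed at 0 in 2 libraries of 4 h. For g5285.t1, listed at 0 in all libraries of 12 h, it was -4.89 (standard error 1.30, adjusted p = 0.013), and for g12777.t1 it was -1.001 (standard error 0.21, adjusted p = 0.0028). For transcripts listed at 0 these values depend on the pseudocount. The transcripts g5086.t1, g9628.t1 and g5285.t1 were chosen for their change from the controls in these same 12 h libraries. That choice favours differences at 12 h, so their p-values are not those of an independent test. The 12 h libraries had 21 cycles of PCR and those of 4 h 15, and the part of the cycles in these differences was not tested.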

How the results depend on the processing

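The count of 1320 called transcripts at 12 h against the controls stayed within 1.5 times in each alternative tried other than a fit with no fold threshold, which gave 3199 (1918 higher, 1281 lower). The higher transcripts, 492 as reported, numbered 861 with the TMM factor undone. With each library left out, 1002 to 1329 were called, 310 to 624 higher and 664 to 740 lower, and the fewest were called without control replicate 2 (919 of the 1320 kept their call). With TMM undone, 1139 of the 1320 kept their call. In the fit without the 9 h, 18 h and 24 h libraries 1800 were called, and among transcripts above 0 in all 6 libraries 1209. Against 4 h, no fold threshold gave 2075 calls, and each library left out 368 to 591. Against 9 h, only those groups in the fit gave 0 calls, and each library left out 3 to 66. Against 15 h, only those groups gave 1 call, and each library left out 0 to 1.

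With the replicate number as a block, 1314 transcripts were called against the controls (491 higher, 823 lower), 626 against 4 h, 6 against 9 h and 0 against 15 h. The titles do not say whether the numbers pair the samples. Same-numbered libraries of 12 h and the controls deviated from their group means with correlations of -0.03, 0.03 and 0.09. Not every library correlated best with its own number. With 3 libraries per group, these correlations cannot settle whether samples were paired. For g5086.t1, g5285.t1, g4159.t1 and g12777.t1, all 11 alternatives kept the direction and the side of the threshold. For g9628.t1 10 did, and it no longer passed without control replicate 2. The cause of these changes was not tested. The normalized values do not show how many reads lie behind them, and a transcript listed at 0 may be below detection.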
